A study of Mus musculus with 32 samples.

Results

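The 10 genes described here encode the subunits of the transcription factor NF-kappaB (Nfkb1, Nfkb2, Rela, Relb and Rel) and 5 of the proteins that restrain or tune it (Nfkbia, Nfkbib, Nfkbie, Nfkbiz and Tnfaip3). They were taken by symbol from the 24148 symbols that both count tables share, and all 10 passed the filter on low counts in both fits. The study followed Ly6C+ monocytes after transfer into mice whose gut macrophages had been depleted, and the question put to these genes was how their RNA differed between the graft, its progeny in colon and ileum, and the days after transfer. Donor monocytes (CD117- CD11b+ CD115+ Ly6C+ GFPint) came from the bone marrow of Cx3cr1 GFP/+ mice, and 3 libraries of these cells, which had no toxin, form the graft group. The labels of these libraries name blood as the organ. Recipients were C57BL/6J bone marrow chimeras, irradiated at 7 to 10 weeks of age and reconstituted with marrow that carries a diphtheria toxin receptor. In the main experiment the receptor came with the Itgax promoter (the Itgax-DTR/GFP transgene of line 57Lan, CD11c-DTR), and toxin was given at 18 ng per g before the transfer and 9 ng per g after it. Per the study, donor cells carried CD45.1 and graft-derived cells were told from host cells by CD45.1 and Cx3cr1 GFP, and the labels give the sort of the gut libraries as DAPI-CD45+CD11b+CD64+Ly6C-MHCII+. They came from colon at day 4 (3 libraries), day 8 (4, of which 3 were used) and day 12 (4) and from ileum at days 4, 8 and 12 (4 each). The other experiment used Cx3cr1-DTR marrow, in which the receptor follows expression of Cx3cr1, and the same treatment, and gave 6 libraries of colonic macrophages, which the study dates to day 14. The titles of these 6 libraries hold the words "gfp only", which no other title has. The study lists 4 repeats of this group without naming which, and all 6 were used. It lists 3 repeats for colon at day 8, again without naming which, and the left-out library is that of the earliest transfer experiment, a choice made here. All recipients were wild type mice whose marrow, but not every radioresistant cell, had been replaced. The labels do not say which libraries came from separate animals, so p-values measure the spread between libraries. Some colon and ileum libraries share a date and a number in their titles, and whether they came from the same mice is not stated. The comparisons of colon with ileum treat all libraries as independent.

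NF-kappaB proteins act as dimers. RELA, REL and RELB carry transactivation domains, whereas NFKB1 and NFKB2 are made as precursors that are processed to p50 and p52, and in resting cells most dimers are held in the cytoplasm by IkappaB proteins. Signals from Toll-like, IL-1 and TNF receptors activate the IKK kinases, which mark IkappaBalpha (Nfkbia), IkappaBbeta (Nfkbib) and IkappaBepsilon (Nfkbie) for degradation, while CD40, RANK and the lymphotoxin receptor also drive the alternative pathway through NIK, NFKB2 and RELB. Freed dimers induce their own inhibitors. Nfkbia is resynthesized and removes NF-kappaB from the nucleus, Tnfaip3 encodes A20, a ubiquitin-editing enzyme that shuts off signalling upstream of IKK, and Nfkbiz encodes IkappaBzeta, a nuclear protein that is needed for a group of secondary response genes. Gut macrophages lie next to bacteria and are known for weak inflammatory responses to them, and this feedback is held to be part of that restraint.

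Levels are given as normalized reads, that is reads counted on a gene per 10,000,000 mapped reads of its library, unless another scale is named. Between 591817 and 5228664 reads fell on genes per library of the main experiment, and 1223772 to 4218027 per CX3CR1-DTR library, and the 3 reads taken as the floor of detection correspond to 3.51 to 27.6 normalized reads. The libraries of engrafted macrophages held markers of other cells. The summed level of 12 intestinal epithelial genes was 36.8 to 58.9 in the graft, 102742 to 163448 in colon and 19264 to 127137 in ileum, and that of 12 pan-leukocyte genes was 118865 to 128946, 2531 to 10048 and 7246 to 51730.0. Ptprc, which encodes CD45 and defines the gate, was at 3826 to 6089.8 in the graft, 143 to 965 in colon and 252 to 3052 in ileum, and Epcam, an epithelial adhesion molecule, at 0 to 2.42, 4608 to 8461 and 1046 to 6249. Goblet cell markers (6 genes) summed to 2.42 to 19.6 in the graft, 33369 to 89639 in colon and 8645 to 50899 in ileum, fibroblast markers (6) to 0, 467 to 4667 and 199 to 4634, and endothelial markers (6) to 81.4 to 119, 258 to 1034 and 181 to 5004. B cell markers (6) summed to 236 to 262, 597 to 8428 and 3281 to 139119, and T cell markers (5) to 0 to 9.69, 6.23 to 26.7 and 19.2 to 379.7. Csf1r, the receptor that macrophages need for survival, was at 4000.0 to 5784, 475 to 3942 and 803 to 17974. Of the ileum day 4 libraries, the 2 of experiment 1 (replicates 2 and 3) stood apart, with epithelial sums of 127137 and 124150.0, inside the range of colon, against 28345 and 36532 in the 2 of experiment 2, and calls that change without them are given both ways. The epithelial, stromal and leukocyte sums move with the contrast of graft and gut, and leukocyte, B cell, T cell, endothelial and epithelial markers with that of colon and ileum, most of the 10 genes are also expressed outside leukocytes, and the part of these shifts in the results was not tested. In bulk RNA, fewer cells of a type and less RNA per cell cannot be told apart. Directions below are given on the TMM scale, which sets libraries level over most genes and in which the median of all genes tested lay 0.20 to 0.24 above the graft (log2), and beside the direction when libraries are scaled to the 12 pan-leukocyte genes, where that median lay 2.37 to 4.91 above it.

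**Figure D1:**
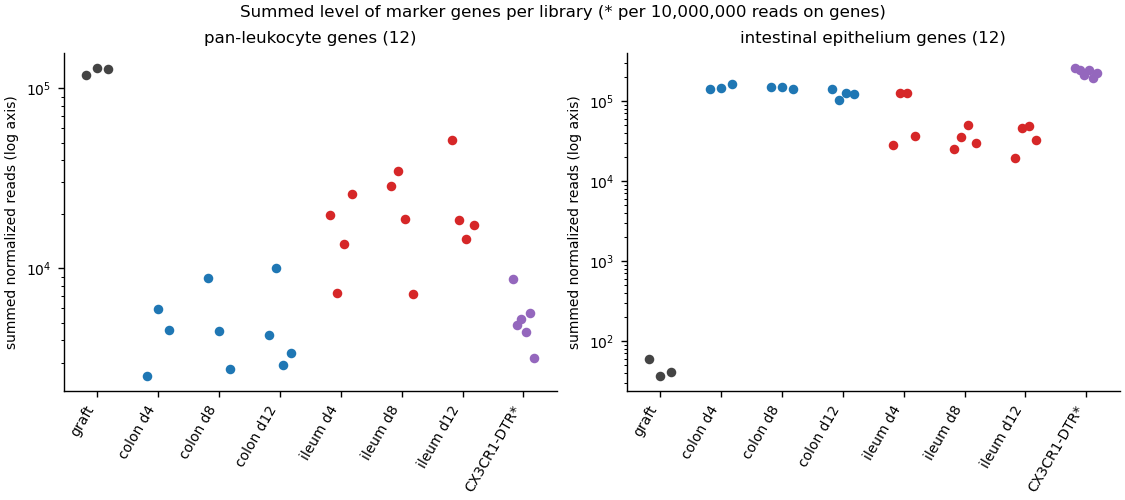
Summed normalized reads (log axis) of 12 pan-leukocyte genes (left) and 12 intestinal epithelial genes (right), 1 point per library, by group. The 3 graft libraries lie at 118865 to 128946 for the leukocyte genes, above every engrafted library, and at 36.8 to 58.9 for the epithelial genes, below every engrafted library. CX3CR1-DTR libraries are per 10,000,000 reads on genes.

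Of the subunits, Nfkb1 fell from graft to gut in both segments at every day, Rela fell in colon, and Relb rose in ileum at every day and in colon at days 4 and 8, on the TMM scale; scaled to pan-leukocyte genes, Nfkb1 and Rela had positive values in each of these comparisons and Relb stayed higher. Nfkb2 and Rel did not pass the test in any of the 6 comparisons with the graft. Nfkb1 encodes p105, the precursor of p50. The graft libraries had 1420.3, 1752 and 1485 normalized reads. Colonic macrophages had 256, 157 and 242 at day 4, 294, 261 and 249 at day 8 and 335, 246, 116 and 160.0 at day 12. Ileal macrophages had 320.3, 235, 166 and 199.7 at day 4, 277, 347, 161 and 228 at day 8 and 204, 319, 315 and 217 at day 12. All 22 engrafted libraries lay below the lowest graft library, and colon and ileum overlapped at each day. The difference from the graft was 5.66-fold in colon at day 4 (log2 fold change -2.50 ± 0.29 (SE), edgeR adjusted p = 1.00e-07) and 4.90-fold in ileum at day 4 (log2 fold change -2.29 ± 0.26 (SE), edgeR adjusted p = 1.19e-07), and the log2 fold changes of the other days were -2.28 and -2.56 in colon and -2.07 and -2.10 in ileum. Within the 3 transfer experiments, which the dates in the labels separate (1 date, of ileum day 8 replicate 2, matches none and was read as a slip of the year for experiment 3), the log2 ratio of mean levels over the graft of the same experiment was -3.45 to -2.15 in colon and -3.01 to -2.22 in ileum at day 12. The ratios within experiments, here and below, are of normalized reads without TMM. With scaling to library totals the median of all genes lay at -0.35 to -0.04 over the graft (log2). Scaled to pan-leukocyte genes the log2 fold change of Nfkb1 was 2.28 in colon and 0.47 in ileum at day 4 (adjusted p = 0.471 in ileum). Both lay below the median of all genes on that scale (4.91 and 3.03).

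Rela encodes p65, the partner of p50 in the classical dimer. It was at 643, 809.9 and 819 normalized reads in the graft, and in colon at 294, 237 and 372 (day 4), 263, 235 and 349.9 (day 8) and 366, 315, 306 and 329.8 (day 12). Every colonic library was below the lowest graft library. The log2 fold changes in colon were -1.003 ± 0.32 (SE), -1.15 ± 0.32 and -0.85 ± 0.29 (edgeR adjusted p = 0.00966, 0.0037 and 0.0146), and the last was no longer called without graft replicate 3 (adjusted p = 0.0542). Ileal libraries ranged over 184 to 783 and overlapped with the graft at days 4 and 8, and the log2 fold changes of -0.30 to -0.23 did not pass the test (adjusted p = 0.405 to 0.536). Without the ileum day 4 libraries of experiment 1 the day 4 value was -0.55 ± 0.30 (adjusted p = 0.133). Without ileum day 4 replicate 3 alone that value was -0.63 ± 0.26 and was called (adjusted p = 0.0416). Within transfer experiments the log2 ratio of mean levels over the graft, without TMM, was negative in both segments at every day. It was -1.77 to -0.95 in colon and -1.05 to -0.45 in ileum. With scaling to library totals the median of all genes in ileum was itself -0.35 to -0.20. The difference in Rela between the segments is tested directly in a later comparison.

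Relb encodes the transactivating subunit of the alternative pathway. The graft libraries had 157, 229 and 194 normalized reads, and colon had 358, 252 and 437 at day 4, 412, 331 and 393 at day 8 and 368, 239.8, 149.8 and 224 at day 12. Ileum had 201, 288, 589.8 and 235 at day 4, 404, 482, 211 and 102 at day 8 and 355, 372, 276 and 251 at day 12. Colon at days 4 and 8 and ileum at day 12 lay wholly above the graft, whereas colon at day 12 and ileum at days 4 and 8 overlapped with it. The log2 fold changes were 1.17 ± 0.39 (SE), 1.22 ± 0.39 and 0.65 ± 0.37 in colon (edgeR adjusted p = 0.0123, 0.00972 and 0.127) and 1.19 ± 0.38, 1.11 ± 0.37 and 1.16 ± 0.37 in ileum (0.0105, 0.0147 and 0.0106). These calls were less stable than that of Nfkb1. With scaling to library totals none of the 5 was past the threshold (adjusted p = 0.0555 to 0.179), and leaving out graft replicate 1, the lowest graft library, ended the call in colon at day 4 and in ileum at days 8 and 12 (adjusted p = 0.0511 to 0.0664). Without colon day 4 replicate 3, ileum day 4 replicate 3, ileum day 8 replicate 1 or ileum day 8 replicate 2 the call of that group was lost too, and without both ileum day 4 libraries of experiment 1 the value there was 0.55 (adjusted p = 0.24; for the single libraries, adjusted p = 0.0518 to 0.0731). Within transfer experiments the log2 ratio of Relb over the graft at day 12 was -0.03 to 0.92 in colon and 0.14 to 1.01 in ileum, with the lowest value of each segment in experiment 3.

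Nfkb2, which encodes p100 and p52, was at 385 to 569 normalized reads in the graft, 218 to 456 in colon and 169.9 to 878 in ileum, and its log2 fold change over the graft was -0.50 in colon and 0.63 in ileum at day 12 (edgeR adjusted p = 0.207 and 0.129). Rel, the c-REL subunit of lymphoid and myeloid cells, was scarce. Its graft libraries had 92.6, 85.3 and 89.6 normalized reads, and 21 of 22 engrafted libraries were below them, at 8.25 to 74.2. The exception was ileum day 12 replicate 1 with 186. None of the 6 differences of Rel passed the test (log2 fold change -1.05 to 0.08, SE 0.71 in colon at day 8). The annotated gene also runs 215 bases past the end of the transcript on which Rel was counted (mm9), and reads of a 3′ method that start there are not in these counts.

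**Figure D2:**
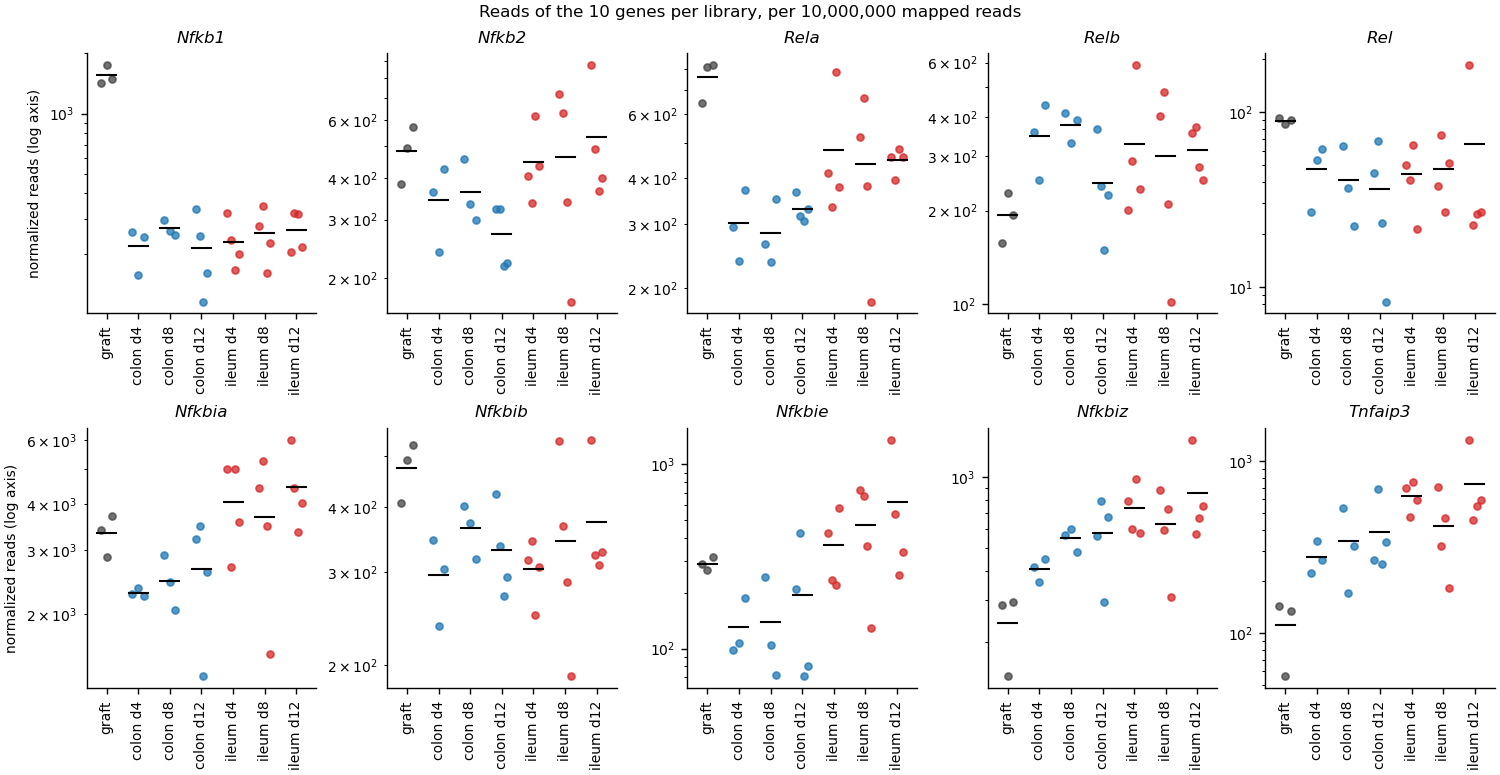
Normalized reads (log axis) of the 10 genes in each of the 25 libraries of the main experiment, 1 point per library, with the mean of each group as a bar. Nfkb1 lies at 1420.3 to 1752 in the graft and 116 to 347 in gut, and Nfkbiz and Tnfaip3 lie above the graft in every engrafted library; scaled to pan-leukocyte genes, the log2 fold change of Nfkb1 was positive in all 6 comparisons (0.14 to 2.29).

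Among the inhibitors, Nfkbiz and Tnfaip3 rose from graft to gut in both segments at every day on the TMM scale. Both were also higher when scaled to pan-leukocyte genes, where the median of all genes tested lay 2.37 to 4.91 above the graft (log2). Of the comparisons with the graft in these recipients, Nfkbia and Nfkbie passed edgeR's test with TMM in ileum at day 12 alone and Nfkbib in none. The sequences before their start sites are shown because feedback by these genes runs through kappaB sites in their promoters. The RefSeq table used here (GRCm38.p6) holds promoters for 7 of the 10 genes and none for Nfkb1, Relb and Nfkbiz; each window holds 250 bases before the start and 50 after, 5′ to 3′ on the strand of the gene, with matches to the kappaB consensus of 10 bases on either strand in capitals (overlapping matches run together).
Nfkbia chr12:55492598-55492897, minus strand: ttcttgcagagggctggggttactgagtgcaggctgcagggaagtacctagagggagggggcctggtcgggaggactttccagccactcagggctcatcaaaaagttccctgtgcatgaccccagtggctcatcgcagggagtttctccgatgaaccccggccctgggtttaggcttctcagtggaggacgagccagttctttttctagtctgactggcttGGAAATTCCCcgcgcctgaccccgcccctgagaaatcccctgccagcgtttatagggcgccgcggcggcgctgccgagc
Tnfaip3 chr10:19015361-19015660, minus strand: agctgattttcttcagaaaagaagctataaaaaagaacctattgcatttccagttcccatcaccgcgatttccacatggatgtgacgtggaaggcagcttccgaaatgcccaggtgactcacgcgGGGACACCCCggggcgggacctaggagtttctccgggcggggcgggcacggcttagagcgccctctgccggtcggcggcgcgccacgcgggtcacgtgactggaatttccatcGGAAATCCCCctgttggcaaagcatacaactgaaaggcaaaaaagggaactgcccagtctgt
Nfkbie chr17:45555450-45555749, plus strand: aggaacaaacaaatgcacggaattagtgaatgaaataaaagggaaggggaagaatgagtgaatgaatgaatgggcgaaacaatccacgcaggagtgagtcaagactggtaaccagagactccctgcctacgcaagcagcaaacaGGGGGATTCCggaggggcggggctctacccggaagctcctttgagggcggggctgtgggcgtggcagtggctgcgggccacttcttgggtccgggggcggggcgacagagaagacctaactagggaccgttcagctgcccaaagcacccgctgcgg
Nfkb2 chr19:46304487-46304786, plus strand: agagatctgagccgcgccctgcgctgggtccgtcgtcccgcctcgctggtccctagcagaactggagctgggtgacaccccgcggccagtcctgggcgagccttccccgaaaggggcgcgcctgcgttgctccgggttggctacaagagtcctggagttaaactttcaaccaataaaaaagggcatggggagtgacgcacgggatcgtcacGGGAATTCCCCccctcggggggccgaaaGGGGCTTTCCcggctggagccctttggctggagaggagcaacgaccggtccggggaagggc

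The Nfkbia window has 1 match, GGAAATTCCC, 29 bases before the start, that of Tnfaip3 has 2 and that of Nfkbie 1. A second start site of Tnfaip3 and the windows of Rela and Nfkbib have none, and Rel and all 3 start sites of Nfkb2 have at least 1. In all, 5 of the 7 genes have a match in at least 1 of their windows. Of 32851 promoter windows of this length in the table, 8.46% hold one. Genes with several start sites have several windows, and those of start sites 2 and 3 of Nfkb2 overlap and share 1 site. A match is a description of the letters, and no binding was measured here.

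Nfkbiz was at 286, 143 and 295 normalized reads in the graft. Colonic libraries had 414, 359 and 447 at day 4, 567, 600.2 and 481 at day 8 and 560.5, 788, 296 and 673 at day 12. Ileal libraries had 792, 602, 977 and 578 at day 4, 881, 597, 733 and 309 at day 8 and 1435, 571, 671 and 751 at day 12. No engrafted library overlapped with the graft, although colon day 12 replicate 3 with 296 lay next to the highest graft library with 295. The rise was 2.12-fold in colon at day 4 (log2 fold change 1.08 ± 0.39 (SE), edgeR adjusted p = 0.0208) and 4.17-fold in ileum at day 4 (log2 fold change 2.06 ± 0.39 (SE), edgeR adjusted p = 9.33e-05), and at day 12 it was 3.03-fold (adjusted p = 8.18e-04) and 5.02-fold (adjusted p = 2.26e-05). At day 8 the log2 fold changes were 1.43 ± 0.39 (SE) in colon and 1.90 ± 0.38 in ileum. The call in colon at day 4 ended without graft replicate 2, the lowest graft library (adjusted p = 0.115), and without colon day 4 replicate 3 (0.052). It also ended with scaling to library totals (0.0965) and with all 4 colon day 8 libraries in the fit (0.0641). The other 5 calls held in every alternative that was run.

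Tnfaip3 gave 143, 56.2 and 136 normalized reads in the graft. In colon it gave 224, 344 and 266 at day 4, 537, 172 and 321 at day 8 and 267, 691, 253 and 338 at day 12, and in ileum 703, 476, 756 and 592 at day 4, 713, 324, 469 and 184 at day 8 and 1336, 459, 551 and 594 at day 12. Every engrafted library was above the highest graft library, and the lowest graft value was again that of replicate 2. It rose 3.19-fold in colon at day 4 (log2 fold change 1.67 ± 0.53 (SE), edgeR adjusted p = 0.00859), 4.42-fold in colon at day 12 (adjusted p = 8.29e-04), 7.72-fold in ileum at day 4 (log2 fold change 2.95 ± 0.53 (SE), edgeR adjusted p = 5.04e-05) and 9.38-fold in ileum at day 12 (adjusted p = 1.77e-05). The values of day 8 were 1.87 ± 0.53 (SE) and 2.45 ± 0.52 on the log2 scale. Within transfer experiments the log2 ratio over the graft at day 12 was 0.98 to 2.59 in colon and 1.76 to 3.40 in ileum, lowest in experiment 1 and highest in experiment 3 in both. Without graft replicate 2 the colon day 4 value missed the threshold (adjusted p = 0.0541).

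Nfkbia gave 3410.5, 2866 and 3715 normalized reads in the graft. In colon it was at 2275, 2359.8 and 2251 at day 4, 2907, 2448 and 2051 at day 8 and 3217, 3494, 1355 and 2604 at day 12, and none of these days passed the test (log2 fold change -0.20 to -0.0007, edgeR adjusted p = 0.628 to 0.999). In ileum it was at 4995, 2690.0, 4986 and 3588 at day 4, 4432, 5266, 3477 and 1560.0 at day 8 and 6004, 4431, 3357 and 4041 at day 12. Day 12 passed the test (log2 fold change 0.91 ± 0.32 (SE), edgeR adjusted p = 0.0197) and day 4 did not (log2 fold change 0.74 ± 0.32 (SE), edgeR adjusted p = 0.0516). Day 4 did pass with DESeq2 (adjusted p = 0.0315), with RLE (0.0493) and without ileum day 4 replicate 2 (0.0216) or 4 (0.0394). The day 12 call was lost without ileum day 12 replicate 1 (adjusted p = 0.0785), without graft replicate 1 (0.0508) or 2 (0.0822) and with scaling to library totals (0.289).

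The levels of Nfkbie spread widely. The graft libraries were close together at 286, 265 and 315 normalized reads, whereas colon ranged over 70.7 to 423 and ileum over 129 to 1358. At day 12 the ileal libraries had 1358, 537, 249.6 and 334 and the rise passed the test (log2 fold change 1.60 ± 0.61 (SE), edgeR adjusted p = 0.028), but without ileum day 12 replicate 1 it was 0.80 (adjusted p = 0.228), and leaving out any single graft library ended the call with values of 1.53 to 1.70 (0.0579 to 0.0831). At day 4 its value in ileum was 0.74 ± 0.60, and 1.16 ± 0.70 without the libraries of experiment 1, neither past the threshold. Nfkbib, whose IkappaBbeta is not among the strongly induced inhibitors, had 407 to 523 in the graft, 237 to 422 in colon and 190.3 to 537 in ileum, with log2 fold changes of -0.35 to 0.15. It was counted on a transcript that stops 787 bases short of the annotated 3′ end (mm9), and reads beyond that end are not in its counts.

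**Figure D3:**
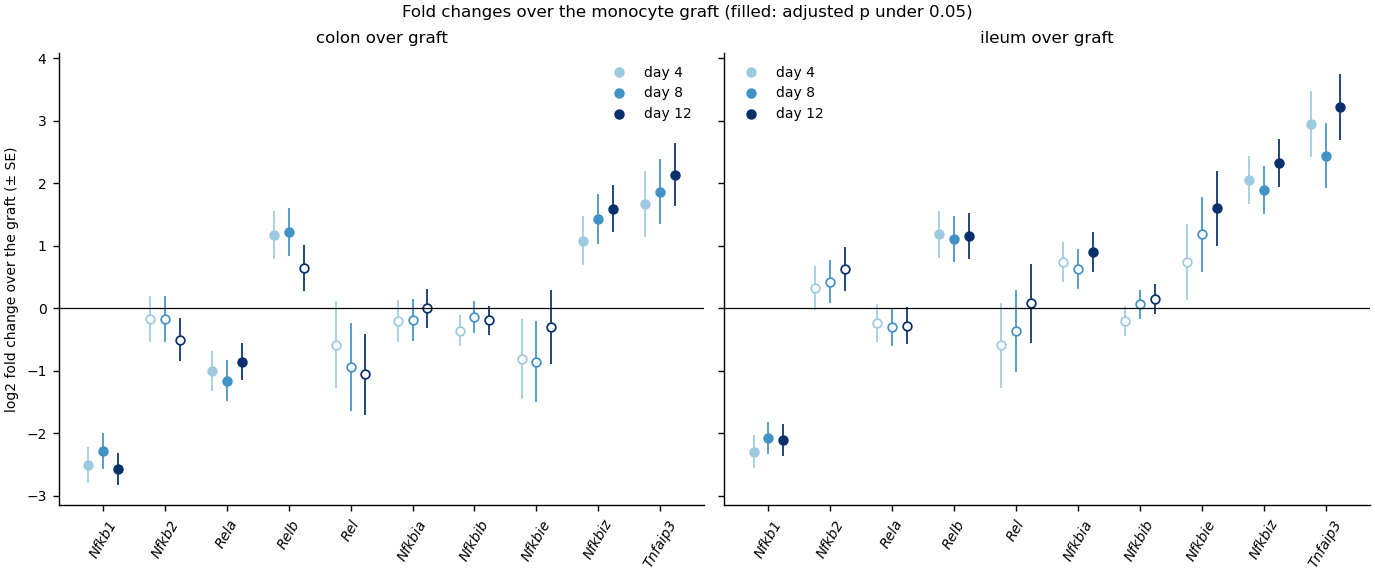
Log2 fold change over the graft on the TMM scale (points, with SE as bars) for the 10 genes in colon (left) and ileum (right) at days 4, 8 and 12, filled where the edgeR adjusted p is under 0.05. Nfkb1 lies at -2.56 to -2.07 and Tnfaip3 at 1.67 to 3.23; when scaled to pan-leukocyte genes all 10 genes have a positive value in colon at day 4, Nfkb1 included at 2.28.

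Counted over the 10 genes, 2 fell and 3 rose in colon at day 4, where 24.5% of all 11842 genes tested fell and 35.9% rose. At day 8, 2 fell and 3 rose (background 23.9% and 35.2%) and at day 12, 2 fell and 2 rose (24.9% and 37.7%). In ileum, 1 fell and 3 rose at day 4 (20.5% and 36.2%), 1 fell and 3 rose at day 8 (19.5% and 34.3%) and 1 fell and 5 rose at day 12 (20.0% and 35.9%). Read against those shares the counts are no result about the 10 genes as a group, and the comparison gives which of them moved. Scaled to library totals 2 or 3 of 10 were lower in colon and 1 or 2 in ileum and 1 or 2 of 10 were higher, and scaled to pan-leukocyte genes none was lower and 9 or 10 were higher. The median log2 fold change of the 10 genes was -0.28, -0.18 and -0.24 in colon, against 0.21, 0.22 and 0.24 over all genes tested, and 0.53, 0.53 and 0.77 in ileum, against 0.23, 0.20 and 0.22. All 6 comparisons share the 3 graft libraries.

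Between the gut segments, colonic macrophages had less RNA of Nfkbia and Nfkbie than ileal macrophages at days 8 and 12 on the TMM scale. They also had less Rela at day 8 and less Nfkb2 at day 12. Scaled to pan-leukocyte genes all of these values were positive in colon, at 0.32 to 1.75. They lay below the median of all genes tested on that scale (2.24 at day 8 and 2.38 at day 12). None of the 10 genes passed the test at day 4 with edgeR, where 5 had an unadjusted p under 0.05 and DESeq2 called 1, Nfkbia, as lower in colon. Without the ileum day 4 libraries of experiment 1, edgeR called 2 as lower in colon at day 4, Nfkbia (-0.96, adjusted p = 0.0448) and Nfkbie (-1.96, adjusted p = 0.0461). The same omission added Rela and Tnfaip3 to the calls of day 12 (adjusted p = 0.0474 and 0.0493). At day 8, 3 of 10 were lower in colon and none higher, and at day 12 likewise 3 and none. Among all genes, 2.66% were lower in colon and 0.524% higher at day 4, 18.3% and 16.7% at day 8, and 17.2% and 15.3% at day 12. Ptprc differed the same way, with log2 fold changes of -2.45, -1.80 and -2.12 at days 4, 8 and 12 (edgeR adjusted p = 0.0424, 0.0238 and 0.00508), as did Csf1r at days 8 and 12 (-2.26 and -2.23). At day 12, 12 of 12 pan-leukocyte, 10 of 12 macrophage, 3 of 3 B cell, 3 of 3 T cell and 6 of 6 endothelial markers tested were lower in colon (median log2 fold change -2.42, -2.02, -4.35, -4.94 and -2.31) and 12 of 12 epithelial markers higher (1.61). The part of these shifts in the differences was not tested.

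For Nfkbie the normalized reads at day 8 were 243, 104 and 71.4 in colon and 724, 671, 358 and 129 in ileum, and at day 12 210.2, 423, 70.7 and 80.8 in colon and 1358, 537, 249.6 and 334 in ileum. The segments overlapped at both days. The log2 fold change of colon over ileum was -2.04 ± 0.63 (SE) at day 8 and -1.89 ± 0.56 at day 12 (edgeR adjusted p = 0.0159 and 0.0123), and -1.55 ± 0.63 at day 4 (adjusted p = 0.15). Within each transfer experiment that held both segments the ratio kept its sign, at -2.19 to -1.15 at day 8 and -2.05 to -1.35 at day 12 (log2 of mean levels, with 1 or 2 libraries a side). Nfkbia differed by -0.82 ± 0.32 at day 8 and -0.91 ± 0.29 at day 12 (adjusted p = 0.0496 and 0.021), with within-experiment ratios of -0.60 to -0.44 and -0.95 to -0.46. With transfer experiment as a replicate block the day 8 value was -0.81 and no longer called (adjusted p = 0.063), and 11 further alternatives besides pan-leukocyte scaling also lost it. Its libraries at day 12 overlapped at the edge, since ileum reached down to 3357 and colon up to 3494 normalized reads. The value of Nfkb2 at day 12 was 323, 324, 218 and 223 in colon and 878, 489, 367 and 401 in ileum, with no overlap (log2 fold change -1.13 ± 0.32 (SE), edgeR adjusted p = 0.0102). For Rela at day 8 the log2 fold change was -0.85 ± 0.31 (adjusted p = 0.0345), and at days 4 and 12, -0.77 ± 0.31 and -0.58 ± 0.28 (adjusted p = 0.143 and 0.116). All of these calls rest on few libraries. Without ileum day 12 replicate 1 the day 12 values were -0.73 for Nfkb2, -1.09 for Nfkbie and -0.69 for Nfkbia, and none was called (adjusted p = 0.0785, 0.121 and 0.0951). With the fourth colon day 8 library, that of experiment 1, the day 8 values shrank to -0.36 for Nfkbie, -0.19 for Nfkbia and -0.50 for Rela (adjusted p = 0.753, 0.748 and 0.264), and without colon day 8 replicate 3 none was called either.

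Tnfaip3 and Nfkbiz had negative values of colon over ileum on each day on the TMM scale, none of which passed the test in the main fit. Scaled to pan-leukocyte genes the values were positive, where the median of all genes tested was 1.89, 2.24 and 2.38 at days 4, 8 and 12. On the TMM scale the values of Tnfaip3 were -1.28 ± 0.48 (SE), -0.58 ± 0.47 and -1.09 ± 0.43 (edgeR adjusted p = 0.122, 0.362 and 0.0555). At day 12 its adjusted p was 0.0423 under the replicate block and 0.0493 without the ileum day 4 libraries of experiment 1. Those of Nfkbiz were -0.98 ± 0.37, -0.47 ± 0.36 and -0.73 ± 0.33 (adjusted p = 0.123, 0.336 and 0.096). At day 4 the Tnfaip3 libraries of the segments did not overlap, at 224 to 344 in colon and 476 to 756 in ileum, and neither did those of Nfkbiz, at 359 to 447 and 578 to 977. Nfkb1 and Relb had log2 fold changes of -0.21 ± 0.27 and -0.01 ± 0.37 at day 4. Without the ileum day 4 libraries of experiment 1 these were -0.35 ± 0.32 and 0.63 ± 0.38 (adjusted p = 0.454 and 0.236). Within experiment 2 the log2 ratio of Relb between the segments at day 4 was 0.87.

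**Figure D4:**
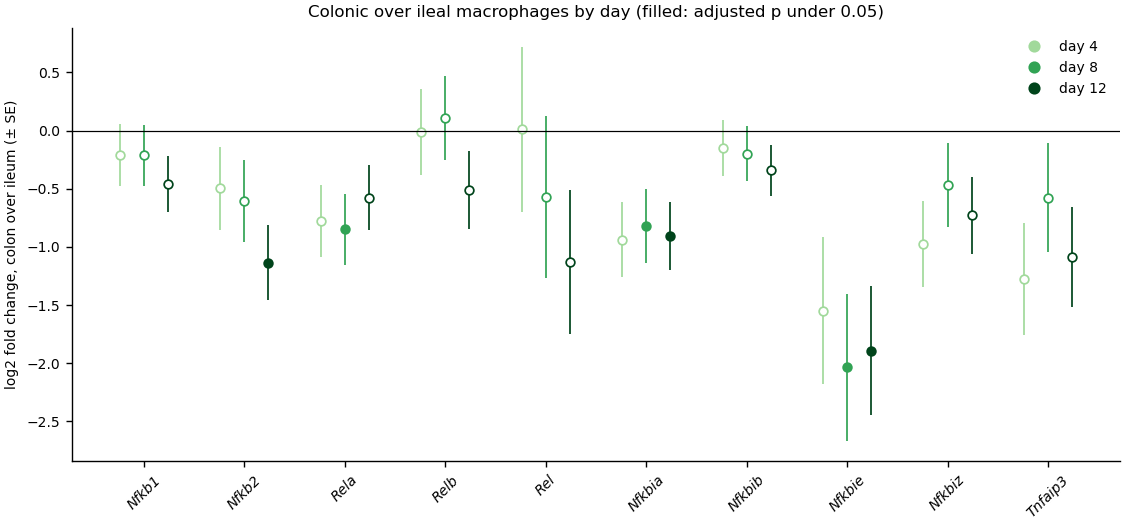
Log2 fold change of colonic over ileal macrophages on the TMM scale (points, with SE as bars) for the 10 genes at days 4, 8 and 12, filled where the edgeR adjusted p is under 0.05. Nfkbie lies lowest, at -1.55, -2.04 and -1.89. The called genes turn positive when scaled to pan-leukocyte genes (Nfkbie 0.32 at day 8 and 0.62 at day 12). They stay below the median of all genes tested on that scale (2.24 and 2.38).

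After day 4, no change of any of the 10 genes with time was called. In colon the comparisons of day 8 with 4, 12 with 8 and 12 with 4 called 0% of all genes, and in ileum they called 5.13%, 0% and 2.30% of all genes and none of the 10 members, with edgeR and with DESeq2, and no member had an unadjusted p under 0.05 in any of them. The largest fitted changes in ileum were those of Nfkbie, from 364 ± 169 (SD, n = 4) at day 4 to 619.9 ± 507 at day 12 (log2 fold change 0.86 ± 0.55, SE, adjusted p = 0.432), and of Tnfaip3 between days 8 and 12 (log2 fold change 0.78 ± 0.43, adjusted p = 0.765). The interaction of segment and time from day 4 to day 12 called 0% of all genes and no member (edgeR; 0 members at an unadjusted p under 0.05, and 0 with DESeq2), with values from -1.14 for Rel to 0.25 for Nfkbiz and adjusted p of at least 0.923.

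Colonic macrophages of CX3CR1-DTR recipients at day 14 differed from the graft in 7 of the 10 genes, and from colonic macrophages of CD11c-DTR recipients at day 12 in 9. Nfkb1, Rel, Nfkbia and Nfkbiz were lower and Relb and Rela higher than in either on the TMM scale. Scaled to pan-leukocyte genes 9 of 10 members were higher than in the graft and none lower. The median of all genes tested lay 5.04 above the graft (log2) on that scale. Nfkb1, Rel, Nfkbia and Nfkbiz lay below this median, at 0.76 to 3.76. Against the graft 4 of 10 fell and 3 rose, where 36.0% of 11718 genes tested fell and 39.5% rose, and against colon at day 12, 5 were lower and 4 higher, where 35.4% and 25.2% were. Depletion model, day, count table and the title words "gfp only" change together between these libraries and colon at day 12. Their parts cannot be told apart. The graft is that of the main experiment and of its count table. No library is labelled as the donor cells of the CX3CR1-DTR transfers. The CX3CR1-DTR libraries had an epithelial sum of 194612 to 254639, a pan-leukocyte sum of 3163 to 8759.8 and Ptprc at 13.7 to 34.1 per 10,000,000 reads on genes, the scale used for the levels in this comparison, and the part of these in the result was not tested.

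Nfkb1 was at 2067, 2484 and 2159 reads per 10,000,000 reads on genes in the graft, 490.1, 418, 206 and 284 in colon at day 12 and 16.3 to 171 with a median of 104 in the 6 CX3CR1-DTR libraries. It was lower than in the graft (log2 fold change -4.14 ± 0.44 (SE), edgeR adjusted p = 8.61e-07) and lower than in CD11c-DTR colon (log2 fold change -1.76 ± 0.41 (SE), edgeR adjusted p = 0.00201). Scaled to pan-leukocyte genes these were 0.76 and -1.18 (adjusted p = 0.226 and 0.0622). Rel ranged over 0 to 24.5 with a median of 11.6 against 121 to 135 in the graft (log2 fold change -3.16 ± 0.57 (SE), edgeR adjusted p = 1.58e-04), and 1 CX3CR1-DTR library had no read of it. Relb went the other way. It was at 229, 324 and 282 in the graft, 539, 407, 267 and 399 in CD11c-DTR colon and 861 to 1319.8 with a median of 1056 in CX3CR1-DTR colon, above every library of both other groups (log2 fold change 2.25 ± 0.24 (SE), edgeR adjusted p = 9.67e-07 over the graft and log2 fold change 1.42 ± 0.21 (SE), edgeR adjusted p = 3.38e-05 over CD11c-DTR colon). Rela was at 1043 to 1405 with a median of 1218, against 936 to 1190.2 in the graft, with which it overlapped, and 534 to 586 in CD11c-DTR colon (log2 fold change 1.115 ± 0.15 (SE), edgeR adjusted p = 1.79e-05). The small rise of Rela over the graft (log2 fold change 0.45 ± 0.16 (SE), edgeR adjusted p = 0.021) was lost with RLE scaling (adjusted p = 0.0849), with library totals (0.386) and without graft replicate 1 (0.108) or CX3CR1-DTR replicate 1 or 6.

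Of the feedback genes, Nfkbiz, Tnfaip3 and Nfkbia were lower in CX3CR1-DTR than in CD11c-DTR colon. Nfkbiz was at 203 to 429.6 in the graft, 821, 1337, 528 and 1196 in CD11c-DTR colon and 79.8 to 180.2 with a median of 145 in CX3CR1-DTR colon (log2 fold change -2.87 ± 0.30 (SE), edgeR adjusted p = 1.86e-06 over CD11c-DTR colon). Tnfaip3 was at 79.7 to 208 in the graft, 390.4, 1173, 452 and 601 in CD11c-DTR colon and 49.0 to 167 with a median of 77.8 in CX3CR1-DTR colon. It differed from CD11c-DTR colon by -2.84 ± 0.38 (SE, edgeR adjusted p = 1.63e-05) but overlapped with the graft (-0.50 ± 0.43, adjusted p = 0.293). Neither gene overlapped between CX3CR1-DTR and CD11c-DTR colon. Nfkbia was at 942 to 2958 with a median of 1393, with the highest value in replicate 1, against 4064 to 5402 in the graft and 2415 to 5931 in CD11c-DTR colon, and was lower than in both (-1.33 ± 0.32 over the graft, adjusted p = 0.00152, and -1.51 ± 0.29 over CD11c-DTR colon, adjusted p = 4.53e-04). Scaled to pan-leukocyte genes, the values over the graft turn to 3.76 for Nfkbiz and 3.43 for Nfkbia, whereas those over CD11c-DTR colon keep their sign at -2.28 for Nfkbiz, -2.06 for Tnfaip3 and -1.02 for Nfkbia. Nfkbie did not pass in either comparison (-0.96 ± 0.42 and -0.87 ± 0.40, adjusted p = 0.0527 and 0.0727). Nfkb2 was at 466 to 746 with a median of 653, passed against CD11c-DTR colon (0.47 ± 0.19, adjusted p = 0.0387) and not against the graft (0.16 ± 0.20, adjusted p = 0.474), and the first of these was lost without CD11c-DTR replicate 1, 3 or 4 or CX3CR1-DTR replicate 3, 4 or 6 (adjusted p = 0.0631 to 0.103). The 3 rises over the graft and the 4 over CD11c-DTR colon include Nfkbib, whose counted transcripts in the tables of the experiments end 787 bases apart, so that its levels are not comparable between them. The other 9 genes were counted on the same transcripts in both.

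**Figure D5:**
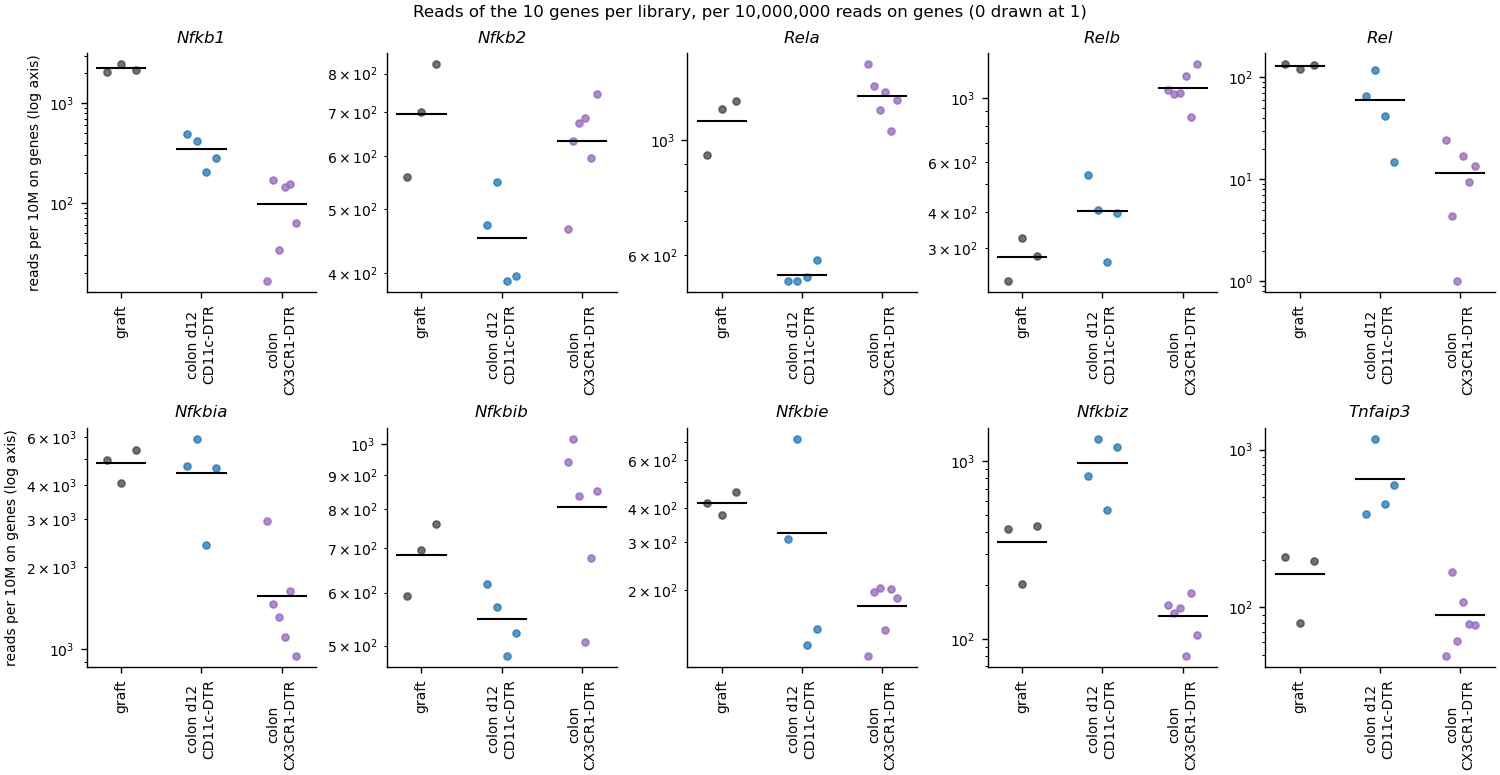
Reads per 10,000,000 reads on genes (log axis) of the 10 genes in the graft (3 libraries), colonic macrophages of CD11c-DTR recipients at day 12 (4) and of CX3CR1-DTR recipients (6), 1 point per library, with the mean as a bar and a value of 0 drawn at 1. Relb lies at 861 to 1319.8 in CX3CR1-DTR colon, above all other libraries, and Nfkbiz at 79.8 to 180.2, below all of them. Scaled to pan-leukocyte genes Nfkbiz too is higher than in the graft, by 3.76 (log2), where the median of all genes tested is 5.04.

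Other genes of the pathway were taken from 4 lists. Of 24 known target genes 22 were tested. In colon at day 4, 1 fell and 12 rose and in ileum at day 4, 0 fell and 17 rose (background 24.5% and 35.9% in colon, 20.5% and 36.2% in ileum), with a median log2 fold change of 1.55 and 3.85 against 0.21 and 0.23 over all genes, and at day 12, 15 rose in colon and 18 in ileum (background 37.7% and 35.9%). The medians at day 4 stayed positive in colon and ileum with library totals (1.22 and 3.39) and with RLE (1.57 and 3.85). Scaled to pan-leukocyte genes they were 6.17 and 6.27, where the medians of all genes tested were 4.91 and 3.03. Between the segments at day 12, 12 targets were lower in colon and 1 higher (background 17.2% and 15.3%, median -1.49). Scaled to pan-leukocyte genes 1 was lower and 10 were higher (median 1.03, against 2.38 over all genes tested). Il1b, the precursor of an inflammatory cytokine, was at 104 ± 48.2 normalized reads (SD, n = 3) in the graft, 1091 ± 284 in colon at day 4 (n = 3) and 2520.3 ± 489 in ileum at day 4 (n = 4), a log2 fold change of 3.77 ± 0.71 (SE) and 5.04 ± 0.74 (edgeR adjusted p = 8.67e-05 and 4.27e-06). Tnf did not pass, with 164 ± 18.2 in the graft, 81.1 ± 6.93 in colon and 260.0 ± 179 in ileum at day 4 (adjusted p = 0.37 and 0.139). Cxcl1, a neutrophil chemokine, had no read in the 3 graft libraries and was at least 19.6-fold higher in colon and 36.3-fold higher in ileum at day 4, taking the floor of 3 reads in the shallowest graft library (8.42 normalized reads) as the graft level. Nos2, the inducible nitric oxide synthase, likewise had none and was at 32.7 ± 20.9 (SD) in colon and 110.1 ± 66.7 in ileum at day 4, at least 3.88-fold and 13.1-fold over that floor. Ccnd1, a cell cycle gene that epithelium uses widely, rose by 5.87 ± 0.41 and 5.88 ± 0.40 on the log2 scale, and Vcam1 went from 1 read in the graft libraries together to 130.0 ± 41.7 and 294 ± 64.3 normalized reads. Il6, with 3 reads in the graft libraries together, did not pass the filter on low counts.

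Of 24 kinases and adaptors upstream of NF-kappaB, 23 were tested, of which 13 fell and 1 rose in colon at day 4 and 8 fell and 3 rose in ileum at day 4 (background 24.5% and 35.9% in colon, 20.5% and 36.2% in ileum, for this list and those that follow), with a median of -0.84 and -0.34 on the TMM scale, whereas scaled to pan-leukocyte genes none fell and 22 and 20 rose (median 3.85 and 2.33, below that of all genes). Ikbkb, the catalytic IKK subunit of the classical pathway, fell from 1118 ± 43.7 normalized reads (SD, n = 3) to 218 ± 22.01 in colon and 319 ± 93.1 in ileum (log2 fold change -2.01 ± 0.28 and -1.40 ± 0.26, SE, edgeR adjusted p = 1.63e-06 and 6.37e-05). Map3k8, the TPL2 kinase that p105 holds inactive, and Map3k14, the NIK kinase of the alternative pathway, fell too, with log2 fold changes of -3.30 ± 0.45 and -1.61 ± 0.39 for Map3k8 and -1.78 ± 0.45 and -1.44 ± 0.43 for Map3k14, whereas Traf1, an inducible adaptor with 4 reads in the graft libraries together, was at 63.0 ± 15.5 and 83.0 ± 33.0. Of the 10 receptors 5 fell and 2 rose in colon and 3 fell and 3 rose in ileum at day 4 (median -0.79 and -0.18 on the TMM scale, and 3.92 and 2.39 when scaled to pan-leukocyte genes). Tnfrsf1b, a TNF receptor, and Tlr2, a sensor of bacterial lipopeptides, fell in both, with log2 fold changes of -3.75 ± 0.44 and -2.77 ± 0.39 for Tnfrsf1b and -3.18 ± 0.44 and -2.39 ± 0.40 for Tlr2, while Tnfrsf11a, which encodes RANK, rose by 3.61 ± 0.37 and 3.21 ± 0.36 and Il1r1 was at 91.7 ± 35.8 and 99.4 ± 35.6 normalized reads after 4 reads in the graft libraries together. Of 16 other inhibitors 3 fell and 4 rose in colon and 1 fell and 4 rose in ileum (median -0.11 and -0.02 on the TMM scale, and 4.64 and 2.72 when scaled to pan-leukocyte genes). Otud7b, a deubiquitinase, rose by 3.85 ± 0.60 and 3.86 ± 0.60, and Rnf11 and Tax1bp1, partners of A20, by 1.65 ± 0.38 and 1.30 ± 0.32 in colon. Tnip3, an A20-binding protein, was at 17.9 ± 9.46 in the graft and at day 12 at 215 ± 106 in colon and 22.4 ± 16.7 in ileum, higher in colon by 3.12 ± 0.65 (adjusted p = 0.00123), opposite in sign to the members that passed between the segments.

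By the level over the 25 libraries of the main experiment (Pearson's r of log2(normalized reads + 50), given as a description without a p, since libraries share group, marker content and depth), the genes most like Nfkb1 were Ppp2r5a (r = 0.957), Mapk7 (0.955) and Klf13 (0.953), all of which set the graft apart from the gut; over the 22 engrafted libraries alone these fell to 0.650, 0.702 and 0.561. For Nfkbiz they were Cxcl2 (0.906), Tnfaip3 (0.905) and Clec4n (0.880), which held over the engrafted libraries at 0.843, 0.830 and 0.853. For Nfkbia they were Tbxas1 (0.863), Sdc3 (0.859) and Nfkbid (0.854), at 0.872, 0.922 and 0.870 over the engrafted libraries. Among the members, Nfkbia was also close to Nfkbie (0.846, and 0.847 over engrafted libraries) and to Nfkb2 (0.809 and 0.827). Nfkb1 and Tnfaip3 were opposite over all libraries (r = -0.606) and gave a value near 0 over the engrafted ones (0.00642). The restriction to engrafted libraries was chosen after seeing the data.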

How the data were processed

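The deposited tables hold counts per gene for 32 libraries, made by the authors from 3′ poly(A) RNA-seq (derived from MARS-seq, NextSeq 500): reads were aligned to mm9 with hisat 0.1.6, and unique reads on exons were counted on the sense strand with HOMER, 1 transcript per gene, without normalization. Whether the molecular identifiers were collapsed is not given in the sources used here, and the floor of 3 reads covers counting error only. A further 52 columns that matched no sample's labels were not used.
Counts were fitted with edgeR 4.0.16 (R 4.3.3), the quasi-likelihood test with TMM and Benjamini-Hochberg adjustment over all genes tested (adjusted p under 0.05). The fit was tested on simulated data in which a small share of genes changed, equally up and down. Far more genes differed from the graft here, so that simulation does not bear on the choice of scale. Genes needed 50 normalized reads in 3 libraries. The main experiment was fitted with 7 groups and 25 libraries (11842 genes), without the colon day 8 library of experiment 1, since the study lists 3 repeats (it does not name them). The CX3CR1-DTR libraries were fitted with the graft and colon day 12 (13 libraries, 11718 genes). The SE is the log2 fold change over the root of F.
The alternatives were DESeq2 1.42.0, RLE, library totals, pan-leukocyte genes, no filter, other choices of libraries and transfer experiment as a block. The libraries within a group were compared for duplicates (51 pairs) and none agreed within sampling noise. All 10 members are named. Of each pathway list, up to 4 genes are named, those past the threshold with the same sign in colon and ileum at day 4 that have the largest mean change, as well as Tnf, Il1b, Il6, Cxcl1 and Nos2. The members and lists were chosen with earlier results of these data known. Python 3.11.15 was used for tables and promoters.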

Additional observations from a re-analysis of the deposited data

Results flagged for a closer look

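In 4 of 50 gene and group pairs with 4 to 6 libraries, 1 library lay far from the others by Dixon's criterion, which chance gives in about 1 of 20. Of these, 3 were ileum day 12 replicate 1, with 186 normalized reads of Rel against 22.6 to 26.6 in the other 3, 537 of Nfkbib against 309 to 328, and 1336 of Tnfaip3 against 459 to 594. This library also had a pan-leukocyte sum of 51730.0 against 14617 to 18665 in the other 3, a macrophage sum of 132901 against 33942 to 44754, and the lowest Epcam of the 4, 1046, and their part in these levels was not tested. The fourth was CX3CR1-DTR replicate 1, with 2958 reads of Nfkbia per 10,000,000 reads on genes against 942 to 1633.

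The colon day 8 library of experiment 1, which entered no comparison of the report, lay above the highest graft library in 8 of the 10 genes, with 899 normalized reads of Nfkb2, 282 of Relb, 423 of Rel, 5932 of Nfkbia, 711 of Nfkbib, 1067 of Nfkbie, 1529.9 of Nfkbiz and 1483 of Tnfaip3. In 7 of these, Relb being the exception, it was also above the other 3 colon day 8 libraries. Its summed level of the 12 pan-leukocyte genes was 34099.8 and of the 12 epithelial genes 68314, and their part in these levels was not tested.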

How the results depend on the processing

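Of 957 alternative values of 61 log2 fold changes, 830 kept direction and side of the threshold, 89 lost the threshold, 10 gained it and 28 changed sign. The causes were not tested. Scaling to pan-leukocyte genes gave 27 of the 28 sign changes, among its 61 values. Fits with a library left out, which share most of their data, made up 456 of the 957. With transfer experiment as a replicate block, members different between colon and ileum went from 3 to 2 at day 8 and from 3 to 4 at day 12. Nfkbia at day 8 gave -0.81 (edgeR adjusted p = 0.063) and Tnfaip3 at day 12 gave -1.07 (0.0423). No other call of the 10 genes changed. Deviations from group means were correlated between libraries of different groups. The mean r was 0.0165 over 96 pairs within 1 experiment (-0.477 to 0.517) and -0.00946 over 171 pairs across experiments. Deviations sum to 0 within each group, which holds such means near 0, so they cannot decide whether experiments differed. With pan-leukocyte scaling the values in colon at day 4 became 2.28 for Nfkb1, 4.58 for Nfkb2, 3.71 for Rela, 3.93 for Rel, 4.48 for Nfkbia, 4.42 for Nfkbib and 3.82 for Nfkbie. In ileum at day 4 they became 0.47 for Nfkb1, 2.51 for Rela, 2.20 for Rel and 2.63 for Nfkbib, and that of Nfkb2 -0.12 with library totals. Nfkb1 became 2.29 and 1.94 in colon and 0.24 and 0.14 in ileum at days 8 and 12, and Rela 3.52 and 3.73 in colon. Colon over ileum became 1.75 for Rela, 0.32 for Nfkbie and 1.61 for Nfkbia at day 8 (median of all genes 2.24). At day 12 it became 1.45 for Nfkb2, 0.62 for Nfkbie and 1.52 for Nfkbia (median of all genes 2.38). CX3CR1-DTR colon over the graft became 0.76 for Nfkb1, 1.65 for Rel, 3.43 for Nfkbia and 3.76 for Nfkbiz (median of all genes 5.04). Members lower than the graft then numbered 0 in all 7 comparisons, members higher 10 in colon, 9 in ileum and 9 in CX3CR1-DTR colon, and members different between the segments 5, 9 and 9 at days 4, 8 and 12.

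With library totals, members higher numbered 1 in colon at day 4, 2 in ileum at day 12 and 1 in CX3CR1-DTR colon, members lower 2 in ileum at days 8 and 12, and 1 differed between the segments at day 8. RLE gave 1 higher in CX3CR1-DTR colon, DESeq2 gave 1 different between segments at day 4, and no filter gave 1 at day 8. All 4 colon day 8 libraries gave 3 higher in ileum at day 12, and 0 and 1 different between the segments at days 8 and 12. Ileum day 4 of experiment 2 alone gave 2 and 5 at days 4 and 12, and fits of the compared groups alone gave 4 lower in colon at day 8 and 1 different between the segments at day 8. Leaving out each library in turn, the count of members ranged over 1 to 3 higher in colon at day 4, 1 to 2 lower in colon at day 12, 1 to 2 lower in ileum at days 4 and 12, 2 to 5 higher in ileum at day 8 and at day 12, 0 to 2, 0 to 3 and 0 to 5 different between the segments at days 4, 8 and 12, and 1 to 3 higher in CX3CR1-DTR colon. The floor of 3 reads was 3.51 to 27.6 normalized reads, against 8.25 to 186 reads of Rel in the gut libraries compared with this graft.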
